A study of Sus scrofa with 6 samples.

Results

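Ion channel genes were followed by RNA sequencing in pig cells (Sus scrofa, strain Small Xiang Pig). The genes were chosen by symbol alone, as all potassium (KCN), voltage-gated sodium (SCN followed by a digit), calcium (CACN), hyperpolarization-activated (HCN), transient receptor potential (TRP), CLC chloride (CLCN), anoctamin (ANO), ryanodine (RYR), inositol trisphosphate (ITPR), acid-sensing (ASIC), ATP-gated (P2RX) and PIEZO symbols. A total of 149 of the 25322 gene IDs of the deposited table were members, out of 11804 IDs with a symbol. Another 41 genes whose symbols match, the PIEZO genes and CACNA1C among them, were not analysed here. Counts, sums and leading members of a family below therefore cover only its genes with a row.

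The groups were pig cells reprogrammed to pluripotency (porcine iPSCs, named piPSCs) at passage 10, labelled Rex1 negative (P10), piPSCs at passage 5, labelled Rex1 positive (P5), and the fibroblasts from which they came, named PEF, at passage 5. Each group had 2 libraries, but the table holds 1 FPKM column per group (fragments scaled to gene length and library total), so no value below has a replicate error and no test was possible. All 3 groups were of the same strain. Passage and Rex1 state differ together between P10 and P5 and cannot be told apart. The series' title speaks of epigenetic modifiers, but the labels do not say which agents or introduced genes the piPSCs had received, and they do not say whether they came from 1 clone.

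Ion channels are membrane proteins whose pores let potassium, sodium, calcium or chloride pass when voltage, a ligand, calcium or stretch opens them. A pore-forming subunit sets which ion passes, and auxiliary subunits set how much channel reaches the membrane and how fast it opens. Dividing fibroblasts are known for calcium-activated and stretch-sensitive channels, whereas fast sodium channels and high-voltage calcium channels belong mainly to neurons and muscle.

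The labels were set against marker genes of the cell types. All 8 fibroblast markers with a row, among them COL1A2 and COL3A1, were lower in both piPSC groups, and their FPKM summed to 15.9 in P10, 105 in P5 and 2723 in PEF. Contractile markers summed to 137 in P10, 97.3 in P5 and 9539 in PEF, so that the fibroblasts carried high levels of smooth muscle genes. Of 9 markers of pluripotent cells, 2 had a row. LIN28A was at 204 in P10, 299 in P5 and 0.325 in PEF, and DNMT3B was at 24.4 in P10, 159 in P5 and 1.57 in PEF. Neuron markers summed to 850 in P10, 373 in P5 and 66.7 in PEF, and epithelial markers to 1373, 1637 and 24.2 in the same order. Glial markers summed to 3.29, 0.844 and 0.139, with MOG and MAG at 0 throughout. In RNA of whole cultures, fewer cells of a type and less RNA per cell cannot be told apart.

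Most channel genes were low. FPKM reached 1 for 54 of the 149 members in P10, 47 in P5 and 33 in PEF, which is 36.2%, 31.5% and 22.1%. Of all IDs with a symbol the shares were 69.4%, 69.8% and 65.0%. Members listed at 0 numbered 17 in P10, 20 in P5 and 40 in PEF, or 11.4%, 13.4% and 26.8%, and 10 were at 0 in every group. The shares at 0 were 9.23%, 10.6% and 14.7% of IDs with a symbol, and 30.8%, 33.4% and 36.1% of all IDs. PEF thus had the most zeros over all IDs too. The smallest values in the table hint that the P10 column was the deepest, at 1.42 times PEF, and the P5 column the shallowest, at 0.732 times PEF, and the part of depth in the counts of zeros was not tested.

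The highest members differed between the groups. In P10 the order was TRPM7, TRPC4AP, SCN1A, CACNG7, CLCN3, TRPM4 and P2RX3, from 21.1 down to 11.8. In P5 it was TRPC4AP, CACNA2D1, CLCN3, CACNG7 and TRPM7, from 20.98 down to 13.4. In PEF it was ANO6, TRPC6, TRPC4AP, CACNA2D1, TRPM7, KCNK2 and ANO1, from 60.0 down to 22.8. Without replicate values it is not known which neighbours in these orders differ beyond their spread. TRPC4AP matched the rule by its letters, although it encodes a cytoplasmic protein that binds TRP channels and not a channel.

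**Figure D1:**
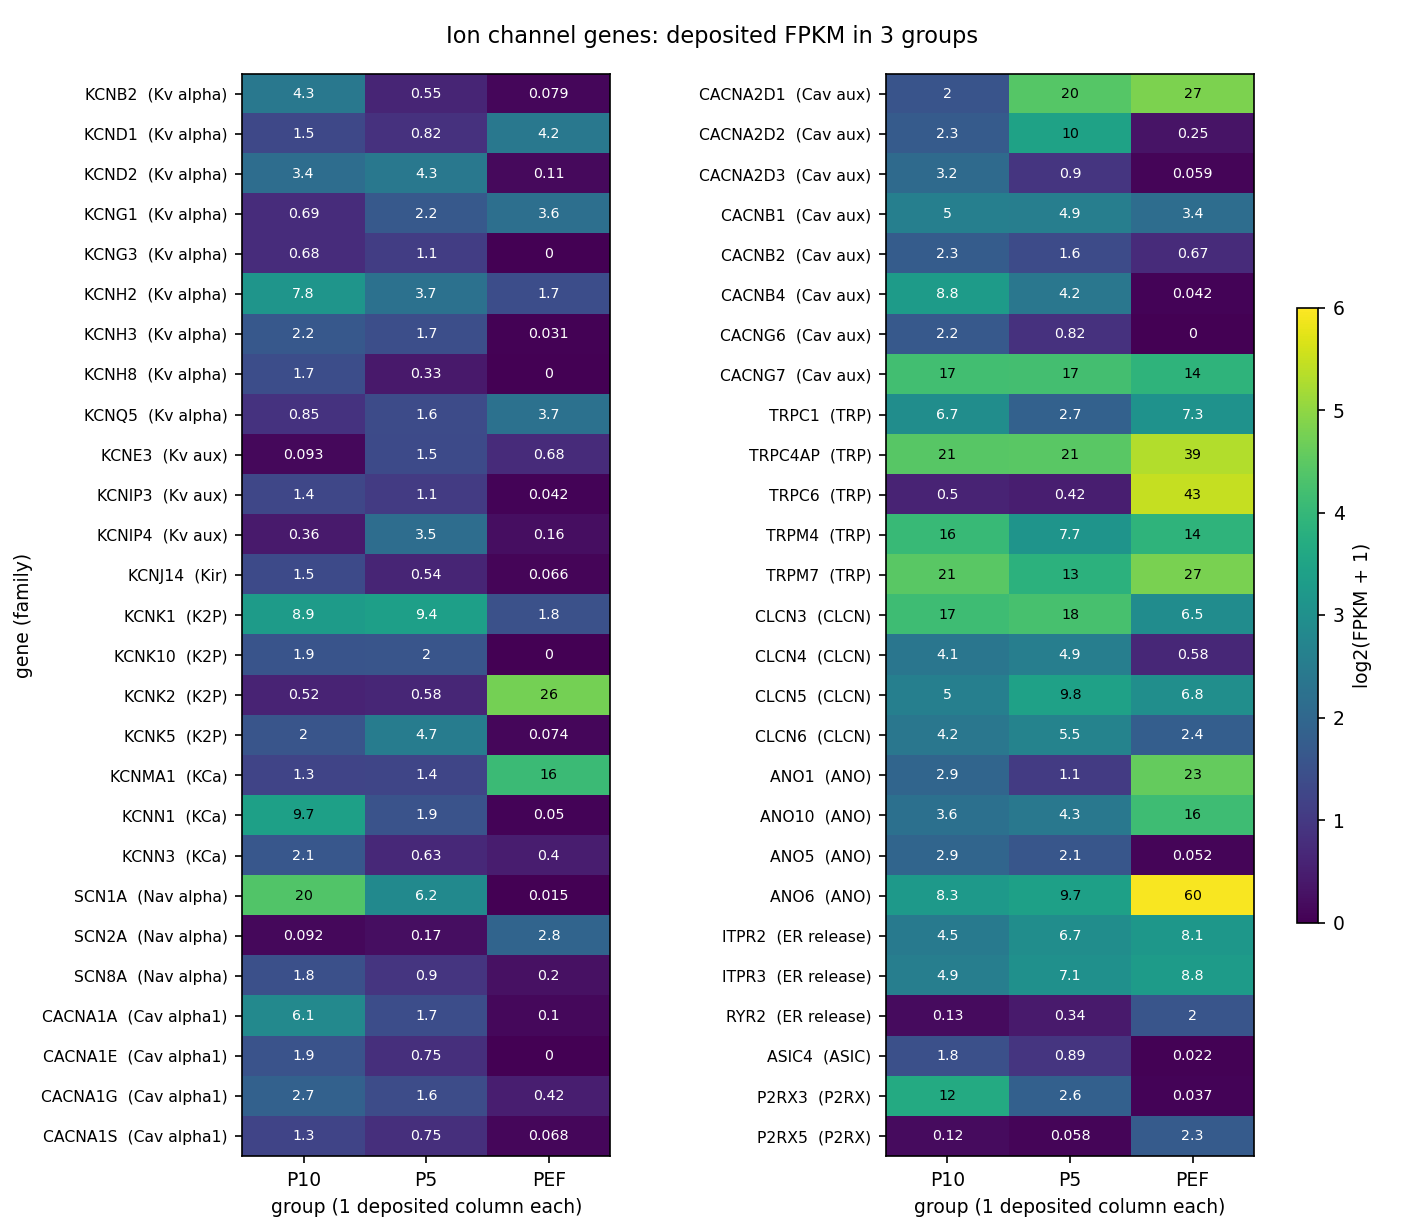
Deposited FPKM of the channel genes described here that reached 5 in a group or differed by at least 1 in log2(FPKM + 1) between 2 groups, in 2 panels ordered by family. Each cell gives the FPKM and is coloured by log2(FPKM + 1), and dark cells in the right column of a panel with bright ones to the left mark genes such as SCN1A, at 19.5 in P10 and 0.01502 in PEF.

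To compare groups, differences were taken as log2(FPKM + 1), which understates the differences of low genes. A member entered where FPKM reached 1 in at least 1 group, and was called higher or lower from a difference of 1 upward, which is 2-fold in FPKM + 1. Of the 149 members 68 entered and 81 did not. Among the 68, 24 entered through 1 group alone, 13 of them through P10, 4 through P5 and 7 through PEF. These were 35.3%, 19.1%, 5.88% and 10.3% of the 68, against 11.7%, 3.90%, 3.51% and 4.27% of all IDs compared. In every group 22 of the 68 members reached 1, or 32.4%, against 75.6% of all IDs compared. A gene that enters through 1 group is more likely to differ, so the shares of members and of all IDs below are descriptions and are not on an equal footing.

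P10 had 30 members higher and 15 lower than PEF, against 19.1% and 19.3% of the 13998 IDs compared. As a share of the 68 members these were 44.1% and 22.1%. P5 had 17 higher and 13 lower than PEF, or 25.0% and 19.1%, against 21.4% and 19.6% of all IDs, so the P5 shares lay near the background. P10 had 9 higher and 4 lower than P5, or 13.2% and 5.88%, against 7.57% and 8.48% of all IDs. These shares of all IDs are also the background for the counts of each family and list below. The first pair and the second share the PEF column, the first and the third the P10 column, and the second and the third the P5 column. Among the 18 members that averaged FPKM 5 or more over the groups, the balance turned, with 3 higher and 7 lower than PEF in P10, and as many in P5. Rescaling without mitochondrial genes moved the median of all IDs to 0.46 in P5 minus PEF. There 24 of the 69 members that then entered were higher and 11 lower, against 30.7% and 13.9% of all IDs. Of the calls, 68.6% were then higher among members and 68.9% over all IDs, against 56.7% and 52.1% as deposited. Taken relative to the median of 0.46, 14 members were higher and 14 lower. The same rescaling moved the median of all IDs to 0.29 in P10 minus PEF and to -0.19 in P10 minus P5. In P10 minus P5, 7 of the 69 members were then higher and 6 lower, against 6.17% and 11.3% of all IDs. Relative to the median, 11 members were higher and 4 lower.

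**Figure D2:**
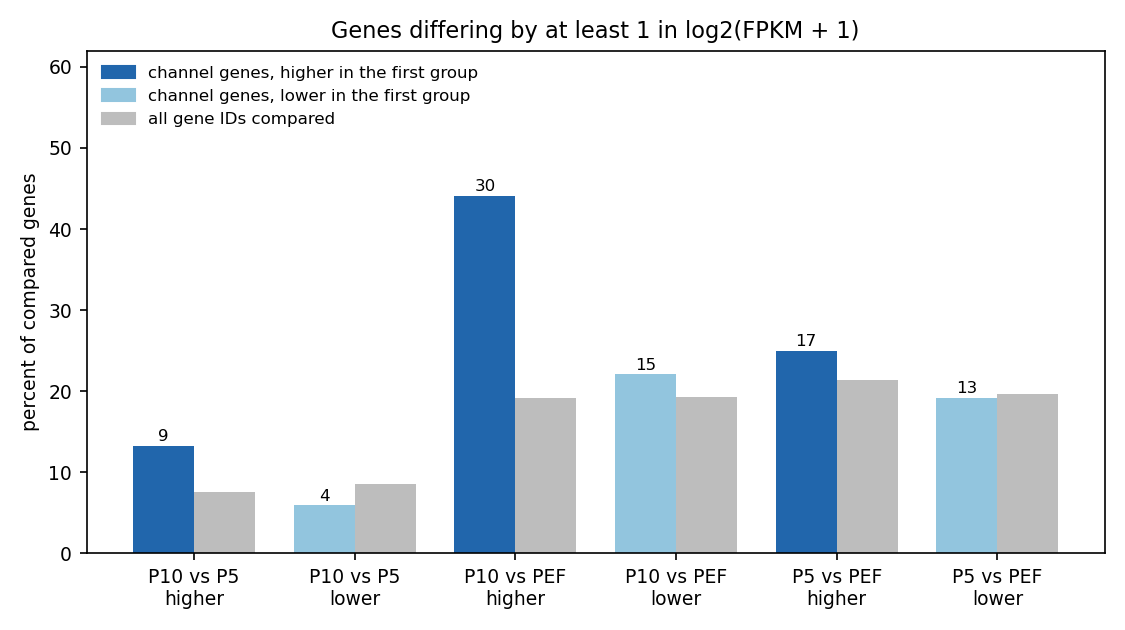
Percent of the 68 channel genes compared (blue, with the number of genes above each bar) and of all 13998 gene IDs compared (grey) that differed by at least 1 in log2(FPKM + 1), by comparison and direction. The bar for genes higher in P10 than in PEF stands at 44.1% for channel genes and 19.1% for all IDs, while the bars for P5 against PEF are close to the grey ones.

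Of all channel genes, a sodium channel pore had the largest positive difference between P10 and PEF. SCN1A encodes the pore of a sodium channel known from inhibitory neurons (ENSSSCG00000024204, susScr3, chromosome 15, 80968416 to 81000486). It was at 19.5 in P10, 6.17 in P5 and 0.01502 in PEF. The log2 difference was 4.34 between P10 and PEF, 2.82 between P5 and PEF and 1.52 between P10 and P5. SCN2A, the pore of a sodium channel of excitatory neurons (chromosome 15, 80350971 to 80429109), went the other way, with 0.0917 in P10, 0.1699 in P5 and 2.84 in PEF. The piPSC groups thus had SCN1A as their main sodium channel pore, and PEF had SCN2A.

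SCN8A, a pore of nodes of Ranvier and axon initial segments, was at 1.76 in P10, 0.905 in P5 and 0.202 in PEF. Under quantile normalization its difference of 1.20 between P10 and PEF no longer reached 1. SCN9A, a pore of peripheral sensory neurons, was at 2.03, 1.999 and 0.784 in the same order and did not reach a difference of 1. Both lie at loci that overlap at least 1 other ID, so the division of reads there is uncertain. The other 6 pore genes, including the skeletal muscle SCN4A, stayed at or under 0.224 in every group, and the beta subunit SCN2B at or under 0.268.

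SCN1A made up 81.4% of the summed FPKM of the 10 sodium channel pore genes in P10 and 63.8% in P5, whereas SCN2A made up 71.6% in PEF. The sum itself was 24.0 in P10, 9.67 in P5 and 3.97 in PEF. SCN3A, SCN2A, SCN1A, SCN9A and SCN7A lie one after another on chromosome 15, between 80065974 and 81569418. Of these neighbours SCN3A and SCN7A were at or under 0.224 in all groups. The locus of SCN1A in the table spans 32.1 kb, against 78.1 kb for SCN2A, 164 kb for SCN3A and 166 kb for SCN9A. Whether the table holds the whole gene was not tested.

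**Figure D3:**
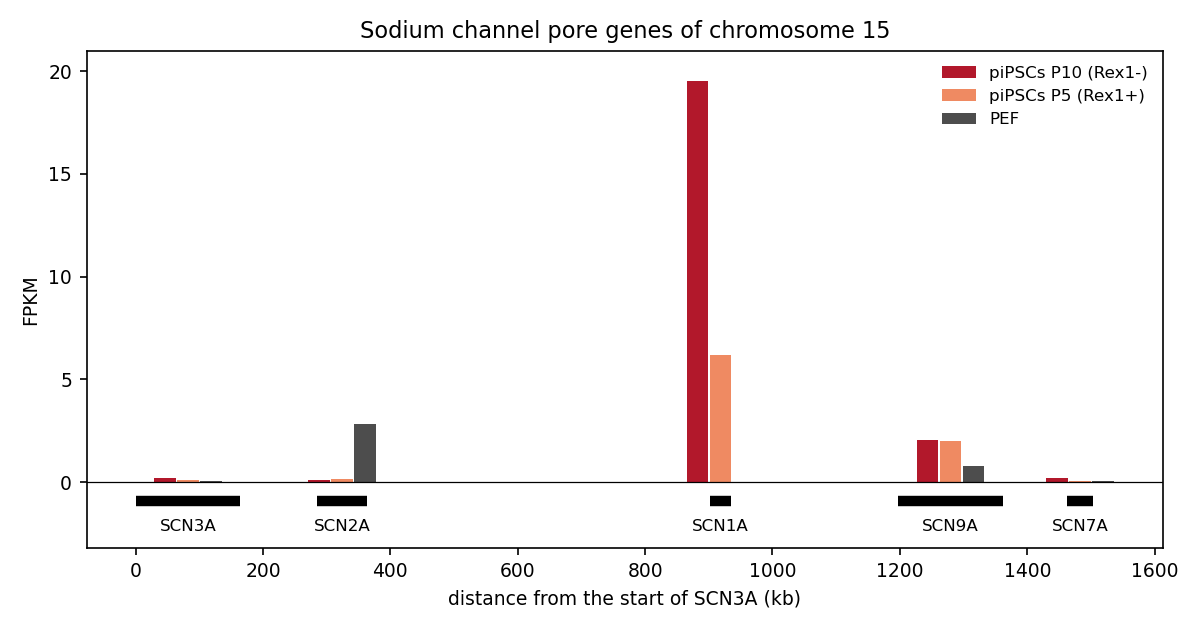
FPKM of 5 sodium channel pore genes in P10, P5 and PEF, placed at their distance in kb from the start of SCN3A, with black bars for the extent of each locus and the 3 coloured bars of a gene set side by side around its middle. SCN1A is high in P10 (19.5) and P5 (6.17), SCN2A in PEF (2.84), and the neighbours SCN3A and SCN7A are near 0 in every group.

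The calcium channel pores with a row were nearly silent in PEF and higher in P10. CACNA1C, another pore of this family, was not analysed, so its level in PEF is not known here. Of 7 pore genes 4 were compared, and all 4 were higher in P10 than in PEF, against 19.1% of all IDs. CACNA1E and CACNA1S entered through P10 alone, the group where they were highest, so their place in this count follows in part from the filter. CACNA1A, the pore of the P/Q-type channel of presynaptic terminals (chromosome 2, 65921411 to 66176317, overlapping 1 other ID), was at 6.12 in P10, 1.67 in P5 and 0.101 in PEF. It was also higher in P5 than in PEF, by 1.28, and in P10 than in P5, by 1.42, as no other pore of this family was on the values as deposited.

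CACNA1E, the R-type pore (overlapping 1 other ID), was at 1.90 in P10 and 0.7497 in P5 and was listed at 0 in PEF. CACNA1G, a low-voltage T-type pore, was at 2.65 in P10, 1.63 in P5 and 0.419 in PEF, and after rescaling without mitochondrial genes it was also higher in P5 than in PEF, by 1.09. CACNA1S, the pore of skeletal muscle, was at 1.33, 0.754 and 0.0684, and its difference of 1.13 between P10 and PEF did not reach 1 under quantile normalization. These 3 genes held the same order of groups at low levels, and none reached a difference of 1 between P10 and P5. CACNA1D, CACNA1F and CACNA1I did not reach 1 in any group.

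Of 11 auxiliary calcium channel subunits 8 were compared, with 5 higher and 1 lower in P10 than in PEF, 2 and 0 in P5 than in PEF, and 1 and 2 in P10 than in P5. The alpha2delta subunits carry pores to the membrane and bind matrix proteins. CACNA2D1 (chromosome 9, 108068515 to 108551541, overlapping 1 other ID) was at 1.96 in P10, 20.4 in P5 and 27.3 in PEF, a log2 difference of -2.85 between P10 and P5. CACNA2D2 (chromosome 13, 36023302 to 36056404) was at 2.29 in P10, 9.97 in P5 and 0.245 in PEF, highest in P5. CACNA2D3 (overlapping 1 other ID) was at 3.24 in P10, 0.904 in P5 and 0.0592 in PEF, highest in P10. CACNA2D4 stayed at or under 0.0686 in every group. CACNA2D1 differed by -0.40 between P5 and PEF, which was not counted.

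The beta subunits sit inside the cell and release pores from retention. CACNB4 (on the unplaced sequence GL892755.1) was at 8.82 in P10, 4.204 in P5 and 0.0422 in PEF, a log2 difference of 3.24 between P10 and PEF and of 2.32 between P5 and PEF. CACNB2 was at 2.33, 1.60 and 0.665, and its difference of 1.001 between P10 and PEF was lost under 3 of 4 other scalings. CACNB1, the beta subunit of skeletal muscle that other cells also use, was at 5.03, 4.94 and 3.45 and did not differ by 1.

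Of the gamma family, CACNG7, which in neurons regulates AMPA receptors, was at 17.1 in P10, 17.5 in P5 and 14.0 in PEF. Its neighbours on chromosome 6 did not share this level. CACNG8, 16.1 kb away, was at 0.235 in P10 and 0.479 in P5 and listed at 0 in PEF, and it overlaps another ID. CACNG6, a further 7.38 kb on, was at 2.18 in P10 and 0.822 in P5 and listed at 0 in PEF. In P10 CACNA1A, CACNB4, CACNA2D3 and CACNG7 were thus the highest pore, beta, alpha2delta and gamma members with a row. Other auxiliary members also reached 1 there, CACNB1 at 5.03 and CACNA2D2 at 2.29 among them. Whether any of these products join in 1 channel was not tested. In PEF the auxiliary CACNA2D1 and CACNG7 stood at 27.3 and 14.0, with a sum of 0.649 over the 7 pore genes with a row, which leaves out CACNA1C.

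Potassium channels were the largest group, with 68 members. Of these 28 were compared, and 14 were higher and 5 lower in P10 than in PEF, which is 50.0% and 17.9%, against 19.1% and 19.3% of all IDs. The median log2 difference was 1.07, against 0.06 over all IDs. In P5 against PEF 9 stood higher and 3 lower, or 32.1% and 10.7% against 21.4% and 19.6%, and the median was 0.72 against 0.09 over all IDs. In P10 against P5 4 stood higher and 2 lower, or 14.3% and 7.14% against 7.57% and 8.48%, and the median was 0.09 against -0.05.

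The leak channels, whose pores stay open at rest and set the membrane voltage, had another leading member in piPSCs than in fibroblasts. KCNK2, a leak channel opened by stretch and lipids (chromosome 9, 141099508 to 141156620), was at 0.520 in P10, 0.575 in P5 and 25.7 in PEF, and its log2 difference from PEF was -4.13 in P10 and -4.08 in P5. KCNK1 (chromosome 14, 61442842 to 61548448), a weakly conducting leak channel, was at 8.86 in P10, 9.44 in P5 and 1.81 in PEF. KCNK5, a leak channel opened by alkaline pH, was at 2.01 in P10, 4.71 in P5 and 0.0736 in PEF. KCNK10, a relative of KCNK2, was at 1.95 in P10 and 2.02 in P5 and listed at 0 in PEF.

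KCNK1 took 63.2% of the summed leak channel FPKM in P10 and 55.1% in P5, and KCNK2 took 92.7% in PEF. The sum was 14.0 in P10, 17.1 in P5 and 27.7 in PEF. The other 6 leak channel genes stayed at or under 0.343, and KCNK7, KCNK15 and KCNK17 were at 0 in every group. Between P10 and P5 no leak channel differed by 1 as deposited, although KCNK5, at -0.92, reached -1.07 after rescaling without mitochondrial genes.

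The calcium- and sodium-activated potassium channels were led by a small-conductance member in P10, a sodium-activated one in P5 and the large-conductance one in PEF. KCNMA1, the large-conductance channel opened by calcium and voltage (chromosome 14, 85796581 to 85996706), was at 1.34 in P10, 1.37 in P5 and 16.1 in PEF. Its smooth muscle beta subunit KCNMB1 was listed at 0 in all groups. KCNN1, a small-conductance channel that calmodulin opens (chromosome 2, 59348764 to 59383505), was at 9.67 in P10, 1.88 in P5 and 0.0495 in PEF. It was counted as higher in all 3 comparisons, by 1.89 in P10 over P5, 3.35 in P10 over PEF and 1.46 in P5 over PEF.

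KCNN3, of the same small-conductance family, was at 2.11, 0.627 and 0.397, and its difference of 1.16 between P10 and PEF did not reach 1 under quantile normalization. KCNN2 was at 1.14, 0.822 and 0.184 and was not counted. KCNT2, a channel opened by sodium, was at 4.41 in P10, 4.98 in P5 and 2.14 in PEF. KCNN1 held 48.7% of the summed FPKM of this family in P10, KCNT2 held 45.9% in P5 and KCNMA1 held 84.6% in PEF.

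**Figure D4:**
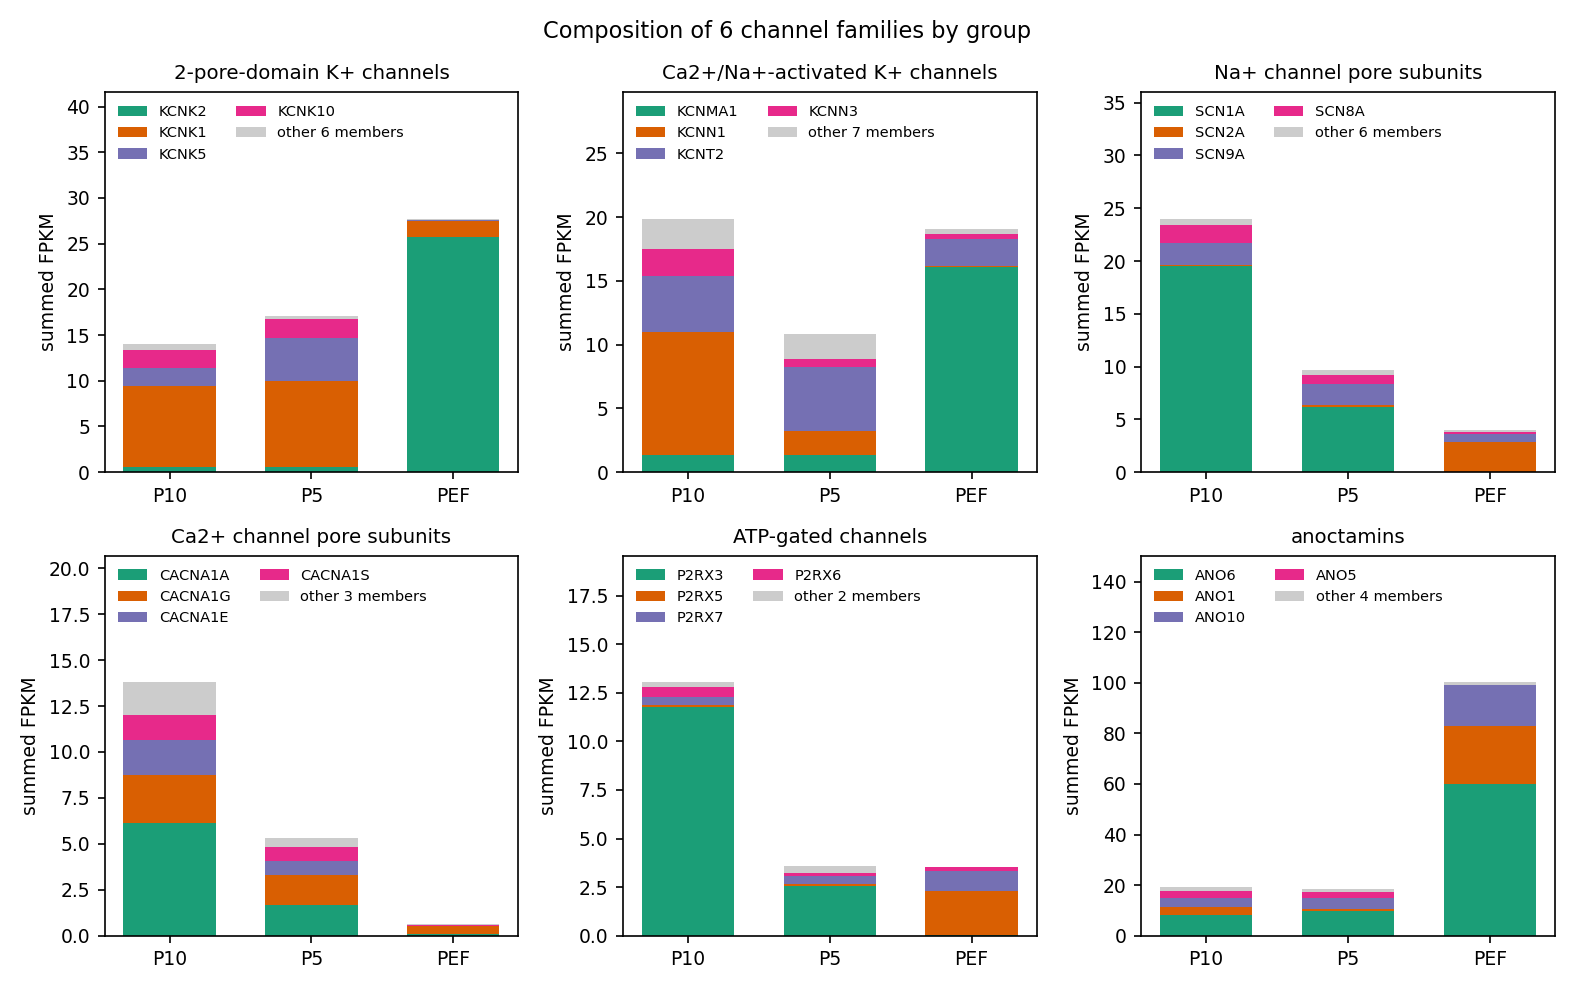
Summed FPKM of 6 channel families in P10, P5 and PEF, with the 4 highest genes of each family in colour and the remaining genes in grey, each panel on its own scale. Only members with a row are drawn, so CACNA1C and P2RX4 are absent. The leading gene differs between PEF and the piPSC groups in 5 of the panels, as with KCNK1 at 8.86 in P10 and KCNK2 at 25.7 in PEF, while for anoctamins ANO6 leads in all 3 groups.

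Among the voltage-gated potassium pores, 12 of 29 were compared. In P10 against PEF 7 were higher and 3 lower, in P5 against PEF 4 and 1, and in P10 against P5 3 and 0. KCNH2, the pore of the rapid delayed rectifier of the heart (chromosome 18, 6719116 to 6725583), was the highest of them in P10, at 7.76 in P10, 3.70 in P5 and 1.65 in PEF. KCND2 was the highest in P5 and KCND1 in PEF. The difference of KCNH2 was 1.72 between P10 and PEF, and 0.82 between P5 and PEF, where rescaling without mitochondrial genes gave 1.13.

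A delayed rectifier, of a type that repolarizes neurons slowly, was higher in P10 than in P5, as was KCNH8. KCNB2 (chromosome 4, 68424668 to 68427279) was at 4.32 in P10, 0.548 in P5 and 0.0794 in PEF, a difference of 1.78 between P10 and P5. KCNH8 was at 1.67 in P10 and 0.332 in P5 and listed at 0 in PEF, and its difference of 1.002 between P10 and P5 was lost under 3 of 4 other scalings. KCNH3, also of the ether-a-go-go family, was at 2.16, 1.72 and 0.0311, at a locus overlapping 5 other IDs.

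The A-type pores, which open and shut quickly below firing threshold, split by gene. KCND2 was at 3.39 in P10, 4.31 in P5 and 0.107 in PEF, and KCND1 was at 1.46, 0.816 and 4.25. The difference of KCND1 between P10 and PEF, -1.09, did not reach 1 after rescaling without mitochondrial genes. The locus of KCND2 spans 1.12 kb in the table, against 6.59 kb for KCND1. KCND pores work with calcium-binding KCNIP subunits and with DPP subunits. KCNIP4 (overlapping 1 other ID) was at 0.359 in P10, 3.45 in P5 and 0.165 in PEF, and DPP10 (overlapping 1 other ID) was at 0.252 in P10 and 2.39 in P5 and listed at 0 in PEF. KCND2 differed by -0.27 between P10 and P5, while these partners were lower in P10, with differences of -1.71 for KCNIP4 and -1.44 for DPP10. KCNIP3, a relative of KCNIP4 that also acts as a calcium-sensitive repressor of transcription, was at 1.41, 1.07 and 0.0415, higher in P10 than in PEF by 1.21.

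Silent and slow subunits were among the remaining voltage-gated pores. KCNC2, of the type that lets neurons fire at high rates, was at 1.72 in P10, 0.779 in P5 and 0.3798 in PEF and was not counted. KCNG1, a silent subunit that joins other pores, was at 0.687, 2.20 and 3.56 and was lower in P10 than in PEF, with a difference of -1.44. KCNG3, another silent subunit, was at 0.683 in P10 and 1.11 in P5 and listed at 0 in PEF, and its difference of 1.08 between P5 and PEF was lost under 2 of 4 other scalings. KCNQ5, of the slow M-current, was at 0.849, 1.60 and 3.73 and was lower in P10 than in PEF, with a difference of -1.35.

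Of the other auxiliary subunits, KCNE3, which keeps epithelial channels open, was at 0.0933 in P10, 1.55 in P5 and 0.677 in PEF, lower in P10 than in P5, with a difference of -1.22. KCNE1 was at 0.456, 1.14 and 0.175, and the beta subunit KCNAB1 was at 1.43, 1.04 and 1.39, and neither was counted. Inward rectifiers were low throughout. KCNJ14 was at 1.53, 0.541 and 0.0664, KCNJ8, the pore of an ATP-sensitive channel, was at 1.12, 1.45 and 0.248, and the other 7 stayed at or under 0.417.

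Of 5 TRP genes compared, 1 was lower in P10 than in PEF and 2 were lower in P5 than in PEF. TRPC6, a calcium-permeable channel opened by diacylglycerol (chromosome 9, 36259074 to 36364139), was at 0.503 in P10, 0.425 in P5 and 43.4 in PEF. Its log2 differences from PEF, -4.88 in P10 and -4.96 in P5, were the most negative among the channel genes. TRPC1 (overlapping 1 other ID) was at 6.69 in P10, 2.66 in P5 and 7.27 in PEF, lowest in P5. Its difference was 1.07 between P10 and P5 and -1.18 between P5 and PEF, and neither reached 1 after rescaling without mitochondrial genes.

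TRPM7, a magnesium-permeable channel joined to a kinase, was at 21.1 in P10, 13.4 in P5 and 26.9 in PEF. TRPM4, a sodium-permeable channel opened by calcium, was at 15.6, 7.65 and 14.0, and TRPC4AP was at 20.6, 20.98 and 38.6. None of these 3 differed by 1, although TRPM7 did so between P5 and PEF under 2 of 4 other scalings, at -0.95 as reported, and TRPM4 between P10 and P5 under quantile normalization, at 0.94 as reported. The other 15 TRP genes, among them the heat sensor TRPV1, the cold sensor TRPM8 and the irritant sensor TRPA1, stayed at or under 0.856 in every group.

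Of 4 anoctamins compared, 3 were lower and 1 was higher in each piPSC group than in PEF. ANO6, a calcium-activated lipid scramblase and channel (chromosome 5, 79126661 to 79217840, overlapping 1 other ID), was at 8.35 in P10, 9.69 in P5 and 60.0 in PEF. ANO1, the calcium-activated chloride channel of smooth muscle, glands and pacemaker cells (chromosome 2, 1575574 to 1605841), was at 2.86, 1.05 and 22.8. ANO10 was at 3.61, 4.29 and 16.5. All 3 were lower in both piPSC groups than in PEF, with differences between -3.54 and -1.73. ANO5, known from muscle, was the exception at 2.91 in P10, 2.06 in P5 and 0.0519 in PEF. The summed anoctamin FPKM was 19.3 in P10, 18.5 in P5 and 100.3 in PEF.

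Release channels let calcium out of the endoplasmic reticulum. ITPR3 (overlapping 1 other ID) was at 4.89 in P10, 7.10 in P5 and 8.82 in PEF, ITPR2 was at 4.49, 6.72 and 8.10, and ITPR1 was at 2.47, 3.09 and 3.55. The 3 inositol trisphosphate receptors held the same order of groups, and none differed by 1. RYR2, the ryanodine receptor of the heart (overlapping 1 other ID), was at 0.126, 0.342 and 1.99, with differences from PEF of -1.41 in P10 and -1.15 in P5, the second of which was -0.95 after rescaling without mitochondrial genes. HCN3 and HCN4, pacemaker channels opened by hyperpolarization, stayed at or under 0.508.

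Of 5 CLC genes compared, 2 were higher in the piPSCs than in PEF and none was lower. CLCN3, a chloride and proton exchanger of endosomes and synaptic vesicles (chromosome 14, 21334496 to 21385635), was at 16.6 in P10, 18.2 in P5 and 6.51 in PEF, and CLCN4, its partner in endosomes, was at 4.13, 4.91 and 0.584. Both were counted as higher in P10 and in P5 than in PEF, by between 1.23 and 1.90. CLCN5 was at 5.01, 9.82 and 6.78, CLCN6 at 4.17, 5.47 and 2.44, and the plasma membrane channel CLCN2 (overlapping 1 other ID) at 1.63, 1.37 and 1.21, and none of these differed by 1 as deposited. CLCN6 was higher in P5 than in PEF by 1.25 after rescaling without mitochondrial genes. CLCN7, which lysosomes of most cells use, was listed at 0 in P10 and P5 and at 0.0115 in PEF, and an exact 0 can be a failed estimate.

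P2RX3, the ATP receptor of pain-sensing neurons (chromosome 2, 13348698 to 13380731), was the highest of the 6 ATP-gated members in P10 and P5. P2RX5 was the highest of them in PEF. P2RX4 was not among the members, so its rank is not known here. P2RX3 was at 11.8 in P10, 2.58 in P5 and 0.0374 in PEF, and was counted as higher in all 3 comparisons, by 1.83 in P10 over P5, 3.62 in P10 over PEF and 1.79 in P5 over PEF. P2RX5 (chromosome 12, 51642372 to 51706358) was at 0.121, 0.0579 and 2.29, lower in both piPSC groups, and P2RX1, P2RX2 and P2RX6 stayed at or under 0.515. P2RX7, the receptor of immune cells that opens at high ATP, was at 0.384, 0.454 and 1.01 and was not counted. ASIC4 was at 1.76, 0.892 and 0.0223, higher in P10 than in PEF by 1.43, and the other 3 acid-sensing genes stayed at or under 0.475.

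Of the 13 members that differed by 1 between P10 and P5, those higher in P10 included SCN1A, CACNA1A, CACNA2D3, KCNB2, KCNH8, KCNN1, P2RX3 and TRPC1, and CACNA2D1, CACNA2D2, KCNE3 and KCNIP4 were lower. With a pseudocount of 5, 3 of the 9 and 2 of the 4 still differed by 1. The neuron markers differed in the direction of the first set. Of 10 compared, 6 were higher in P10 than in P5 and 1 was lower, with STMN2 at 594 in P10 and 253 in P5 and DCX at 44.4 and 8.04. Neural progenitor markers went the same way, with 2 of 5 higher and 0 lower and LMX1A at 159 and 21.7. Of cardiac and skeletal muscle markers 1 of 4 was higher and 0 lower, with MYH6 at 6.59 and 0.623. The epithelial markers differed in the direction of the second set, and 8 of 10 were lower in P10, with CDH1 at 7.89 in P10 and 48.7 in P5. Of fibroblast markers 3 of 8 were also lower, with COL3A1 at 3.11 and 87.9, and of endothelial ones 2 of 4, with none higher. CACNA2D1, of the second set, was highest in PEF, at 27.3, where the epithelial markers summed to 24.2. The part of any of these cell types in the channel values was not tested. Likewise the genes that were high in PEF stood beside contractile markers, of which 7 of 7 were lower in both piPSC groups, with ACTA2 at 23.9 in P10, 18.4 in P5 and 4863 in PEF, and their part was not tested.

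Genes that act with channels were described from 4 lists. Of the 18 anchoring and accessory genes compared out of 36, 8 were higher and 2 lower in P10 than in PEF, or 44.4% and 11.1% against 19.1% and 19.3% of all IDs. In P5 against PEF 8 were higher and 5 lower, or 44.4% and 27.8% against 21.4% and 19.6%, and in P10 against P5 6 and 2, or 33.3% and 11.1% against 7.57% and 8.48%. LGI1, a secreted protein that binds synaptic and potassium channel complexes, was at 18.5 in P10, 5.12 in P5 and 0.0557 in PEF. ANK2, an ankyrin that tethers channels and exchangers to the cytoskeleton, was at 28.0, 9.63 and 1.86, and NFASC, an adhesion molecule of nodes and initial segments, was at 7.67, 2.99 and 0.181. FGF14, a cytoplasmic partner of sodium channel pores, was at 8.86, 7.18 and 0.263. These 4 were higher in both piPSC groups than in PEF.

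Of 7 compared genes of the sodium and potassium pump and its relatives, out of 15 listed, 4 were higher and 1 lower in P10 than in PEF, or 57.1% and 14.3% against 19.1% and 19.3% of all IDs. ATP1B2, a beta chain known from glia, was at 4.32 in P10, 0.851 in P5 and 0.0874 in PEF. ATP1B1, the common beta chain, was lower in both piPSC groups, at 10.2 in P10, 24.5 in P5 and 59.9 in PEF.

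Of 18 compared genes of calcium store entry, pumps and mitochondrial uptake, out of 26 listed, 3 were higher and 5 lower in P10 than in PEF, or 16.7% and 27.8% against 19.1% and 19.3% of all IDs. ATP2B4, a plasma membrane calcium pump at a locus overlapping 1 other ID, was at 25.8 in P10, 12.4 in P5 and 142 in PEF. ORAI2 and ORAI3, pores of store-operated entry, were at 5.50 and 3.68 in P10, at 3.30 and 3.38 in P5 and at 12.8 and 11.1 in PEF. SLC8A2, a sodium and calcium exchanger of brain, was at 5.64, 1.66 and 0.253.

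Of 18 compared channels outside the symbol rule, out of 48 listed, 3 were higher and 3 lower in P10 than in PEF, or 16.7% each, near the 19.1% and 19.3% of all IDs. In P5 against PEF 5 were higher and 4 lower, or 27.8% and 22.2% against 21.4% and 19.6%. PKD2, the cilium and reticulum channel of polycystic kidney disease, was at 21.8 in P10, 13.003 in P5 and 89.8 in PEF. TTYH1, a membrane protein of neural stem cells, was at 22.6, 10.51 and 3.60. BEST2, a bestrophin chloride channel, was at 0.838 in P10 and 2.22 in P5 and listed at 0 in PEF. CLIC6, a chloride intracellular channel protein at a locus overlapping 1 other ID, was at 0.525, 9.45 and 1.77, highest in P5.

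The counts cover all 149 members. Of the 81 that did not enter the comparison, 10 were listed at 0 in every group and 71 lay above 0, up to 0.981 for ANO9. Those at 0 throughout were KCNA10, KCNG2, KCNV2, KCNJ6, KCNK7, KCNK15, KCNK17, KCNMB1, TRPV3 and ASIC5. Some members that missed a difference of 1 as deposited reached it under 1 of the 4 scalings. Without mitochondrial genes these included KCNC2 in P10 against PEF, KCNE1, KCNIP3, KCNJ8 and KCNT2 in P5 against PEF, and KCNG1 in P10 against P5. Under quantile normalization they included KCNQ5 in P5 against PEF.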

How the data were processed

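RNA of PEF and piPSCs was made into libraries with a NEBNext Ultra kit, as the labels' protocols state. The submitters' processing notes name Bowtie2 2.0.6, TopHat2 2.0.9 and the susScr3 build. The deposited values are FPKM in 1 column per group, per the file headers. No source used here states the program, the annotation or how 2 libraries became 1 column. No columns were left unused.

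Symbols came from a table of gene IDs. Coordinates are those of the deposited table, and whether starts count from 0 or 1 is not given. limma was planned for library values, and with 1 column per group the planned description without a test replaced it. Differences used log2(FPKM + 1), a filter of FPKM 1 in at least 1 group and a threshold of 1, with pandas 2.3.3 and numpy 2.4.6. The calling step was tested on simulated data. Named members reached FPKM 5 or differed by 1 in a comparison, and others are named for their family. Values of some genes under this rule are not reported here. Up to 4 genes per list with large differences were named. DPP10 lies outside that rule and was chosen after its values were seen. Members and lists were chosen with earlier results of these data known.

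Depth is unknown. Among IDs under FPKM 0.15, 33 of 774, 21 of 678 and 16 of 589 shared 1 ratio between P10 and P5, P10 and PEF, and P5 and PEF within 0.02 on the log2 scale. These ratios would put the depth of the first column at 1.96, 1.42 and 0.732 times that of the second.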

Additional observations from a re-analysis of the deposited data

How the results depend on the processing

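Counts of channel genes higher and lower in P10 against PEF, P5 against PEF and P10 against P5, in that order, were 30 and 15, 17 and 13, and 9 and 4. No count moved by over 1.5 times with median, quantile or trimmed-mean scaling, rescaling without mitochondrial genes, no filter or without IDs at 0. A pseudocount of 0.1 gave 38 of the 68 members higher in P5 against PEF, where 26.7% of all IDs were then higher. In P10 against PEF it gave 37 of 68, beside 24.6% of all IDs. In P10 against P5 it gave 18 and 8, beside 11.9% and 12.5% of all IDs. A pseudocount of 5 gave 6 and 7, 4 and 6, and 3 and 2. A mean FPKM of at least 5 gave 3 and 7, 3 and 7, and 2 and 1. Of all IDs past that filter, 16.3% and 21.6%, 19.3% and 22.3%, and 7.03% and 7.79% were called. A threshold of 2 gave 7 and 8, 5 and 6, and 0 and 1. Of the 13998 IDs compared, 945 and 1086, 946 and 1096, and 171 and 203 then passed it. Without shared loci 2 were lower in P10 against P5, beside 1011 of 11550 IDs. These move because fewer genes enter, the threshold is higher or low values weigh differently. The median over members was 0.77 in P10 minus PEF, 0.57 in P5 minus PEF and 0.05 in P10 minus P5. It was 1.30 and 1.17 against PEF with a pseudocount of 0.1, 0.27 and 0.19 with 5, 0.15 and 0.0800 without the filter, 0.43 and 0.29 under quantile normalization, and -0.73, -0.82 and -0.0412 in the 3 comparisons with a mean FPKM of at least 5. Family medians changed sign for TRP (0.0045) and P2RX (0.17, and 0.00788 in P5 minus PEF) in P10 minus PEF without the filter. They also did for ANO in P10 minus P5 with a mean of at least 5 (-0.19), potassium auxiliary subunits in P10 minus PEF under quantile normalization (-0.17) and release channels in P5 minus PEF without mitochondrial genes (0.13). The cause of the sign changes was not tested. No paired analysis was possible because the table has 1 column per group and no replicate columns, and for the same reason no replicate could be left out. Values under 1 FPKM rest on few reads.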
